A study of Rattus norvegicus with 18 samples.

Results

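The genes of arginine breakdown and polyamine turnover described here are Arg1, Arg2, Oat, Odc1, Azin1, Oaz1, Amd1, Srm, Sms and Sat1. They are taken by their gene symbols from a table of 30735 genes in rat cerebral cortex, and all 10 of them are in the table and pass the filter on low counts, which keeps 18444 genes. Their known roles and earlier results of these libraries were the reason for choosing them, and no threshold on their values was used.

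RNA was sequenced from the cortex of 18 adult rats, whose sex is not stated, with 1 library per rat and 6 rats per group (sham, SAH 1d and SAH 7d). Subarachnoid hemorrhage (SAH), bleeding into the space around the brain, was produced in Sprague-Dawley rats of 8 to 10 weeks by perforating an artery at the skull base from inside, and the brains were sampled on day 1 or on day 7. The sham operation left the artery intact, and the day on which the sham rats were sampled is not stated. All rats had pentobarbital anesthesia for the surgery, and no transgene or further drug is described for any group. The study describes the tissue as the whole cortex on the operated side, whereas the labels name the cortex of both sides and speak of mice, while the identifiers in the table are rat ones.

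Arginase cleaves arginine to urea and ornithine, and ornithine is either passed on toward proline and glutamate by ornithine aminotransferase or made into putrescine by ornithine decarboxylase, the regulated entry step to the polyamines. Spermidine and spermine are then built from putrescine with aminopropyl groups that derive from methionine, and acetylation by spermidine/spermine acetyltransferase sends them to export or oxidation. Arginine is also the substrate of nitric oxide synthases, and in inflamed tissue the arginase and the nitric oxide routes compete for it.

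The total count per library ranges from 27270026 to 38271014. SAH 1d-3 and SAH 7d-5 stand apart in the genes described here. SAH 1d-3 lies above the other 5 libraries of its group for 6 of the 10 genes (Arg1, Odc1, Azin1, Amd1, Srm and Sat1) and below them for 1 (Arg2). SAH 7d-5 lies above the others for 4 (Arg1, Odc1, Oaz1 and Sat1) and below them for 5 (Arg2, Azin1, Amd1, Srm and Sms). The same libraries have the highest summed levels of monocyte and macrophage markers in their groups, in counts normalized to library size (CPM). The sum is 638 CPM in SAH 1d-3 against 101 to 137 CPM in the rest of that group, and 8155 CPM in SAH 7d-5 against 97.6 to 262 CPM in the rest of that group, while the sham libraries hold 53.3 to 96.7 CPM. Lyz2 alone gives 7914 CPM of the sum in SAH 7d-5, and Lyz2 (471 CPM) and Cd14 (133 CPM) give most of that in SAH 1d-3. There Mrc1, Cd163 and Ms4a7 are within the range of the other SAH 1d libraries, while F13a1 is the highest of the group (10.8 CPM, group median 8.07 CPM). SAH 1d-3 also has the highest sums of its group for red cells (191 CPM, others 52.2 to 102) and, narrowly, T cells (1.79 CPM, others 0.347 to 1.70). Its proliferation sum is narrowly the lowest (13.3 CPM, others 13.6 to 28.8). SAH 7d-5 also has the highest sums of its group for fibroblasts of the meninges (2113 CPM, others 146 to 278), T cells (6.46 CPM, others 0.310 to 1.88) and proliferation (118 CPM, others 8.91 to 18.1), and the lowest for red cells (1.67 CPM, others 7.62 to 65.6). No marker of these lists is at 0 in every library. Results that rest on SAH 1d-3 or SAH 7d-5, called the outlying libraries below, are also given without them. These libraries stand apart in the same genes that are then refitted. Leaving them out can narrow the spread of those genes, so adjusted p values without them are a description. The cortex label was checked against Slc17a7 and Tbr1, markers of cortical projection neurons. Slc17a7 has 985 to 1655 CPM in the sham group, with medians of 1083 CPM in the SAH 1d group and 1276 CPM in the SAH 7d group, and is lowest in SAH 1d-3 (552 CPM) and SAH 7d-5 (485 CPM) within their groups. Tbr1 has 33.1 to 60.9 CPM in the sham group and is likewise lowest in SAH 1d-3 (9.84 CPM) and SAH 7d-5 (19.8 CPM). Markers of the choroid plexus, which is not cortex, sum to 735 CPM in SAH 1d-4 and 1062 CPM in SAH 1d-6. The other SAH 1d libraries have 4.51 to 35.9 CPM of them and the sham group 3.42 to 67.1 CPM. The part of such tissue in the values of SAH 1d-4 and SAH 1d-6 was not tested. Markers of neurons in general (Snap25, Syt1, Rbfox3, Stmn2 and Tubb3) sum to 4552 to 7444 CPM in the sham group and 3513 to 4457 CPM in the SAH 1d group. In the SAH 7d group that sum is 1756 CPM in SAH 7d-5 and 5118 to 6757 CPM in the others.

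Comparing SAH 1d with sham, 4 of the 10 genes changed. Odc1, Sat1 and Arg1 were upregulated and Oat was downregulated, at a Benjamini-Hochberg adjusted p under 0.05 in edgeR's quasi-likelihood test over all genes tested. Among all 18444 genes tested, 25.4% are called in this comparison, 14.9% as higher and 10.5% as lower. None of the 4 reaches the further threshold of the study for a differentially expressed gene (DEG), a 2-fold change, which 6.64% of all genes pass. At an unadjusted p under 0.05, 6 of the 10 pass, against 38.8% of all genes, and the median log2 fold change of the 10 is 0.10, against 0.0086 over all genes. Of the 10, 2 have no overlap between the groups (Odc1 and Oat), as do 13.5% of all genes. The shares of the 10 are not far above those of all genes, and the genes are described one by one below.

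From SAH 1d to SAH 7d, 1 of the 10 genes is called, Oat, which was higher in the SAH 7d group, against 1.37% of all genes (0.282% as higher and 1.08% as lower). It is also the 1 gene of the 10 whose values do not overlap between these groups, against 3.06% of all genes, and 3 of the 10 (Oat, Odc1 and Srm) pass an unadjusted p under 0.05, against 14.7% of all genes. The median log2 fold change of the 10 genes is -0.14, against 0.028 over all genes. Between SAH 7d and sham edgeR calls 0 of the 10, as it calls 0% of all genes. At an unadjusted p under 0.05, 0 of the 10 pass, against 15.4% of all genes, and the DESeq2 Wald test also calls 0 of them. For 0 of the 10 are the SAH 7d values wholly apart from the sham values, against 1.27% of all genes (0.922% as higher). The comparisons share libraries, so the SAH 1d libraries enter both of the first comparisons and the sham libraries enter the first and the last.

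**Figure D1:**
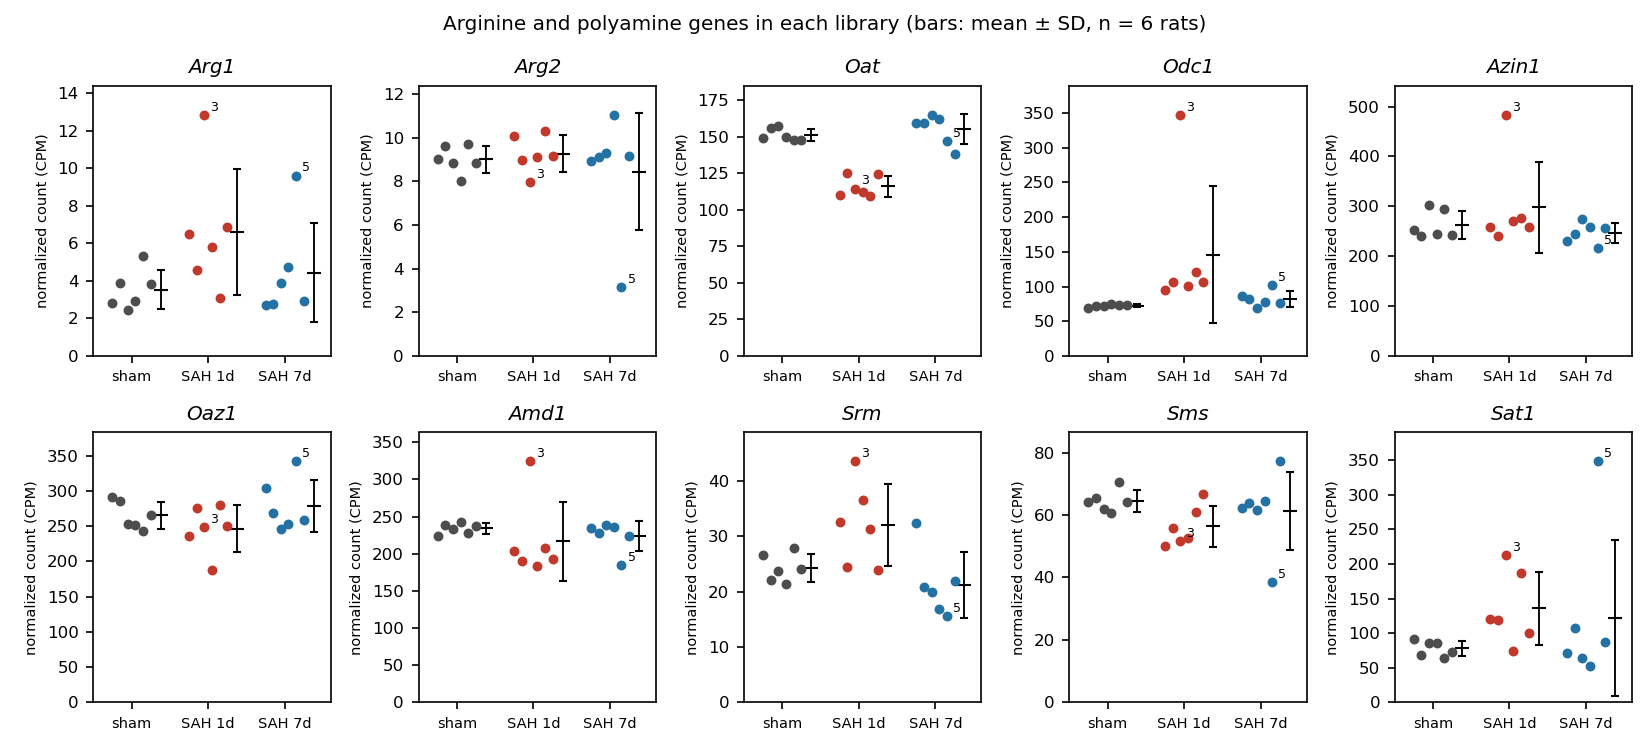
Normalized counts (CPM, linear axis from 0) of the 10 genes in each of the 18 libraries, with the mean and SD of the 6 rats beside each group and the outlying libraries marked by their numbers, 3 for SAH 1d-3 and 5 for SAH 7d-5. Oat in the SAH 1d group lies below every sham and every SAH 7d library, Odc1 lies above every sham library, and the highest values of Odc1 and Sat1 belong to SAH 1d-3 (347 CPM) and SAH 7d-5 (348 CPM).

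Promoter sequences are shown for the 3 called genes for which one is at hand, Odc1, Sat1 and Oat, and for Srm, whose enzyme works directly downstream of Odc1. Each is the 250 bases before the RefSeq start of the gene on the GRCr8 rat assembly, which is not the assembly of the counts. Capitals mark matches to the GC box GGGCGG and to the E-box CACGTG, both searched on the 2 strands.
Odc1, chr6:46058415-46058664, plus strand: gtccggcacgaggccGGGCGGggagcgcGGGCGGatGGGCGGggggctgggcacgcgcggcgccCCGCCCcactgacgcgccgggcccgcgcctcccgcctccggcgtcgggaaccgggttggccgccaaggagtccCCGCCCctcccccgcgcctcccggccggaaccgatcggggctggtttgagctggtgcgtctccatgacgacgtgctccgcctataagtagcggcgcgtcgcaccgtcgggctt
Sat1, chrX:44007839-44008088, plus strand: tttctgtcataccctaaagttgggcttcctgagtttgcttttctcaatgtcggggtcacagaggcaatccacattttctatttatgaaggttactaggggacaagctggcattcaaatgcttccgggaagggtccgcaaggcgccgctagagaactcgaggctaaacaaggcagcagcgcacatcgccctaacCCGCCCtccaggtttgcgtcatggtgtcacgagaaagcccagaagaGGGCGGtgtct
Oat, chr1:196797755-196798004, minus strand: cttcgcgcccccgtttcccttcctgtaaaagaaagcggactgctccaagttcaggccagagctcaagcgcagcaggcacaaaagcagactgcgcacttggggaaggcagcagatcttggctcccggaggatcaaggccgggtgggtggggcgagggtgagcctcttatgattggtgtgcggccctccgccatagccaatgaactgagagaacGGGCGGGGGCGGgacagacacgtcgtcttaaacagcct
Srm, chr5:164308752-164309001, plus strand: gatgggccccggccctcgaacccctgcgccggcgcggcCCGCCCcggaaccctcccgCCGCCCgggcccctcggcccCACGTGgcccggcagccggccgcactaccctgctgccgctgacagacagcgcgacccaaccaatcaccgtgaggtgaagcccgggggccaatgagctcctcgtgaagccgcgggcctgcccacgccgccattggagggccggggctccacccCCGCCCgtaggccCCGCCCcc
The upregulated Odc1 holds 5 GC boxes, and its last one ends 108 bases before the start. Sat1 and Oat hold 2 each, and those of Oat lie next to each other, from 38 to 27 bases before the start. Srm holds 4 GC boxes and 1 E-box, at 173 to 168 bases before the start. Among all 33469 promoters of this length in the same source, 30.5% hold a GC box and 5.59% an E-box, and 0 of the 4 shown hold the TATA box TATAAA (12.9% of all) or the AP-1 site TGACTCA (4.05% of all). These are letter matches and no measure of binding. Of the 10 genes, 7 matched an entry in that source, all but Arg1, Arg2 and Azin1.

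Arg1 and Arg2 encode the cytosolic and the mitochondrial arginase, which open the route from arginine to ornithine. Arg1 (ENSRNOG00000013304) is scarce in the cortex, with 2.44, 3.37 and 5.31 CPM as the lowest, median and highest of the sham group. The SAH 1d group has 3.09, 6.13 and 12.8 CPM, and the SAH 7d group has 2.72, 3.41 and 9.60 CPM. Of the SAH 1d libraries, 4 of 6 lie above every sham library, and the highest values of both SAH groups belong to SAH 1d-3 and SAH 7d-5. Arg1 was upregulated in the SAH 1d group with a log2 fold change of 0.89 (SE 0.30, edgeR adjusted p = 0.0467). This call is close to the threshold. Leaving out any 1 of the 12 libraries loses it in 9 cases and keeps it only without sham-5, SAH 1d-2 or SAH 1d-5, with adjusted p from 0.0193 to 0.0928. Without SAH 1d-3 the log2 fold change is 0.58 (SE 0.24, adjusted p = 0.0819).

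Against the SAH 1d group, Arg1 at SAH 7d has a log2 fold change of -0.56 (SE 0.39, adjusted p = 0.542). Against sham it is 0.32 (SE 0.33, adjusted p = 0.605), and without SAH 7d-5 it is -0.0699. Neither passes the test. Arg1 is known from macrophages and neutrophils as well as from liver, and in these data 4 of the 6 tested monocyte and macrophage markers and both tested neutrophil markers were higher in the SAH 1d group. The summed neutrophil markers reach 63.5 CPM in SAH 1d-3, with S100a9 (30.8 CPM) and Csf3r (21.1 CPM) as the main parts, against 1.89 to 6.06 CPM in the sham group. In SAH 7d-5 the sum of 89.6 CPM is nearly all Csf3r (88.2 CPM), while S100a9 at 0.688 CPM is within the sham range and Mpo is at 0. The part of these cells in the Arg1 values was not tested. In bulk tissue, more cells of a type and more RNA per cell cannot be told apart.

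Arg2 is the more abundant arginase transcript here and did not pass the test in any comparison. It has 8.003, 8.93 and 9.71 CPM as the lowest, median and highest of the sham group, 7.97, 9.12 and 10.3 CPM in the SAH 1d group and 3.17, 9.13 and 11.04 CPM in the SAH 7d group. The groups overlap throughout, and the lowest value belongs to SAH 7d-5, in which the neuron markers are also lowest. The log2 fold change of SAH 1d versus sham is 0.026 (SE 0.098, edgeR adjusted p = 0.871). In SAH 7d versus SAH 1d it is -0.14 (SE 0.23, adjusted p = 0.825), and without SAH 7d-5 it is 0.0272. Arg2 overlaps the gene Vti1b in the RefSeq annotation, and reads from the overlap cannot be assigned to 1 of them without strand.

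Oat (ENSRNOG00000016807) encodes ornithine aminotransferase, the mitochondrial enzyme that turns ornithine into the precursor of proline and glutamate and so draws it away from the polyamines. Its SAH 1d values overlap neither those of the sham group nor those of the SAH 7d group. The lowest, median and highest are 148, 149 and 157 CPM in the sham group, 109, 113 and 125 CPM in the SAH 1d group and 138, 159 and 165 CPM in the SAH 7d group. Each SAH 1d library lies below every sham library and below every SAH 7d library. Among all genes tested, 5.15% lie wholly lower in SAH 1d than in sham, and 0.933% lie wholly higher in SAH 7d than in SAH 1d. Oat fell by 24.1% in the SAH 1d group (log2 fold change -0.40, SE 0.06, edgeR adjusted p = 0.000715).

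In the SAH 7d group Oat was 33.8% higher than in the SAH 1d group (log2 fold change 0.42, SE 0.07, edgeR adjusted p = 0.0160). Against sham the SAH 7d group has a log2 fold change of 0.03 (SE 0.06, adjusted p = 0.812), and its range includes the whole sham range. SAH 1d-3 (115 CPM) and SAH 7d-5 (147 CPM) lie within their groups for Oat, the only one of the 10 genes for which both do. Without them the log2 fold changes are -0.39 and 0.42 (adjusted p = 0.000308 and 0.00282). The call at day 1 is kept when any 1 library is left out. Among the libraries left out in turn, the call between the SAH groups is lost only without SAH 7d-2 (edgeR adjusted p = 0.0502). The call between the SAH groups is also lost with the replicate number as a block. The 5 neuron markers tested were also all lower in the SAH 1d group, and the part of neuron content in the Oat values was not tested.

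Odc1 (ENSRNOG00000005424) encodes ornithine decarboxylase, the first and rate-limiting enzyme of polyamine synthesis, whose transcript is known to rise quickly after growth signals and injury. The sham libraries lie close together, with 68.9, 72.8 and 75.1 CPM as the lowest, median and highest. The SAH 1d libraries have 94.5, 107 and 347 CPM, and the SAH 7d libraries have 68.9, 80.0 and 102 CPM. All 6 SAH 1d values exceed the highest sham value, a separation that 8.32% of all genes tested show in this direction. Odc1 was upregulated with a log2 fold change of 0.998 (SE 0.29, edgeR adjusted p = 0.0236), which is just short of 2-fold.

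The size of this rise depends on SAH 1d-3, which holds 347 CPM against 94.5 to 120 CPM in the other 5 SAH 1d libraries. Without SAH 1d-3 the log2 fold change is 0.53, a rise of 44.7%, with a smaller error (SE 0.07, edgeR adjusted p = 1.00e-04). The call holds without any 1 of the 12 libraries, with adjusted p up to 0.0455. Between the SAH groups 5 of 6 SAH 7d libraries lie below every SAH 1d library, and the log2 fold change is -0.83 (SE 0.31, adjusted p = 0.221). With both outlying libraries left out, which stand apart in Odc1 itself, that log2 fold change is -0.44 (SE 0.08, adjusted p = 0.00456). Against sham, the SAH 7d group has a log2 fold change of 0.17 (SE 0.09, adjusted p = 0.360), with 5 of 6 libraries above every sham library.

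RefSeq lists 10 named pseudogenes of Odc1, 3 of Amd1, 2 each of Oaz1 and Sms and 1 of Oat, and 0 of them have a row in the table. How the authors' counting treated reads that match a gene and such a copy is not stated, so the levels of these genes are uncertain by that much. Odc1 also hosts the small nucleolar RNA Snora80l1.

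Azin1 and Oaz1 encode the opposing regulators of the decarboxylase protein. Oaz1 encodes antizyme, which binds ornithine decarboxylase and brings it to the proteasome, and Azin1 encodes the inhibitor that binds antizyme in its place. The lowest, median and highest values of Azin1 are 240, 248 and 303 CPM in the sham group, 240, 265 and 483 CPM in the SAH 1d group and 217, 250 and 274 CPM in the SAH 7d group. The groups overlap except for SAH 1d-3, at 483 CPM. The log2 fold change of Azin1 in SAH 1d versus sham is 0.17 (SE 0.16, edgeR adjusted p = 0.456), and it is -0.0245 without SAH 1d-3. In the other comparisons it is -0.27 (SE 0.16, adjusted p = 0.461) for SAH 7d versus SAH 1d and -0.10 (SE 0.09, adjusted p = 0.532) for SAH 7d versus sham.

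Oaz1 has 243, 260 and 291 CPM as the lowest, median and highest of the sham group, 188, 249 and 280 CPM in the SAH 1d group and 245, 264 and 342 CPM in the SAH 7d group. The ranges overlap, and the highest value belongs to SAH 7d-5. Its log2 fold changes are -0.12 (SE 0.10, edgeR adjusted p = 0.385) for SAH 1d versus sham and 0.18 (SE 0.12, adjusted p = 0.533) for SAH 7d versus SAH 1d. For SAH 7d versus sham the value is 0.06 (SE 0.10, adjusted p = 0.722), and it is -0.0029 without SAH 7d-5. Antizyme is regulated by frameshifting during translation, which transcript counts do not measure.

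Amd1 encodes S-adenosylmethionine decarboxylase, which makes the aminopropyl donor for both later steps. The sham group has 224, 235 and 243 CPM as the lowest, median and highest, the SAH 1d group 183, 198 and 324 CPM and the SAH 7d group 184, 232 and 238 CPM. Of the SAH 1d libraries, 5 of 6 lie below every sham library and 1, SAH 1d-3, lies above every sham library. With all libraries the log2 fold change of SAH 1d versus sham is -0.12 (SE 0.13, edgeR adjusted p = 0.494). Without SAH 1d-3, Amd1 is called as lower in the SAH 1d group by 17.3% (log2 fold change -0.27, SE 0.06, adjusted p = 0.00293). That library stands apart in Amd1 itself. The call thus depends on 1 library.

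Between the SAH groups Amd1 has a log2 fold change of 0.05 (SE 0.14, edgeR adjusted p = 0.914). Without both outlying libraries, which stand apart in Amd1 itself, it is 0.24 (SE 0.06, adjusted p = 0.0151). Against sham it is -0.07 in the SAH 7d group (SE 0.07, adjusted p = 0.576). Amd1 overlaps Cdk19 in the RefSeq annotation.

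Srm and Sms encode spermidine synthase and spermine synthase, which add the first and the second aminopropyl group. Srm has 21.5, 23.9 and 27.9 CPM as the lowest, median and highest of the sham group, 23.95, 31.9 and 43.5 CPM in the SAH 1d group and 15.6, 20.4 and 32.4 CPM in the SAH 7d group. Of the SAH 1d libraries, 4 of 6 lie above every sham library, and 5 of 6 SAH 7d libraries lie below every SAH 1d library. The log2 fold change of Srm in SAH 1d versus sham is 0.39 (SE 0.14, edgeR adjusted p = 0.0590), which misses the threshold, while DESeq2 gives an adjusted p of 0.0450 and limma on log2(FPKM + 1) one of 0.0173. It also passes in edgeR without SAH 1d-2 or SAH 1d-6. It does not pass in the edgeR fit of all 18 libraries (adjusted p = 0.126), with the replicate block (0.0862) or without SAH 1d-3 (0.0938). For SAH 7d versus SAH 1d the log2 fold change is -0.60 (SE 0.19, edgeR adjusted p = 0.161) and for SAH 7d versus sham -0.21 (SE 0.16, adjusted p = 0.497).

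Sms lies on the other side of 0 at day 1. The sham group has 60.6, 64.2 and 70.5 CPM as the lowest, median and highest, the SAH 1d group 50.0, 54.1 and 66.9 CPM and the SAH 7d group 38.5, 63.0 and 77.2 CPM. Of the SAH 1d libraries, 4 of 6 lie below every sham library. The log2 fold change of Sms in SAH 1d versus sham is -0.21 (SE 0.08, edgeR adjusted p = 0.0770), which misses the threshold, and DESeq2 gives an adjusted p of 0.0449. In edgeR it also passes without SAH 1d-6 (adjusted p = 0.0281). It does not pass with limma on log2(FPKM + 1), which gives -0.0986 (adjusted p = 0.423). Nor does it in the edgeR fit of all 18 libraries (adjusted p = 0.233) or without SAH 1d-3 (0.0996). In the other comparisons the edgeR value is 0.12 (SE 0.14, adjusted p = 0.743) for SAH 7d versus SAH 1d and -0.09 (SE 0.13, adjusted p = 0.707) for SAH 7d versus sham.

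Sat1 (ENSRNOG00000003809) encodes spermidine/spermine acetyltransferase, the inducible first enzyme of polyamine breakdown. Its lowest, median and highest values are 64.3, 78.9 and 91.6 CPM in the sham group, 74.2, 120 and 213 CPM in the SAH 1d group and 53.1, 79.2 and 348 CPM in the SAH 7d group. Of the SAH 1d libraries, 5 of 6 lie above every sham library, and SAH 1d-4 with 74.2 CPM is within the sham range. Sat1 was upregulated in the SAH 1d group with a log2 fold change of 0.79 (SE 0.22, edgeR adjusted p = 0.0193), and without SAH 1d-3 the value is 0.62 (SE 0.19, adjusted p = 0.0249). The call is kept when any 1 library is left out. In a fit of all 18 libraries together, in which the SAH 7d libraries also enter the spread, the adjusted p is 0.168. The part of SAH 7d-5 in that loss was not tested.

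In the SAH 7d group Sat1 spreads from 53.1 to 107 CPM in 5 libraries, with 348 CPM in SAH 7d-5. With all libraries the log2 fold change is 0.64 (SE 0.41, edgeR adjusted p = 0.433) against sham and -0.14 (SE 0.46, adjusted p = 0.920) against SAH 1d. Without SAH 7d-5 the value against sham is -0.0332, and without both outlying libraries the value against SAH 1d is -0.66 (SE 0.23, adjusted p = 0.0830). SAH 7d-5 departs from its group in the markers of several cell types, as given above, and the part of those cells in the Sat1 values was not tested.

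**Figure D2:**
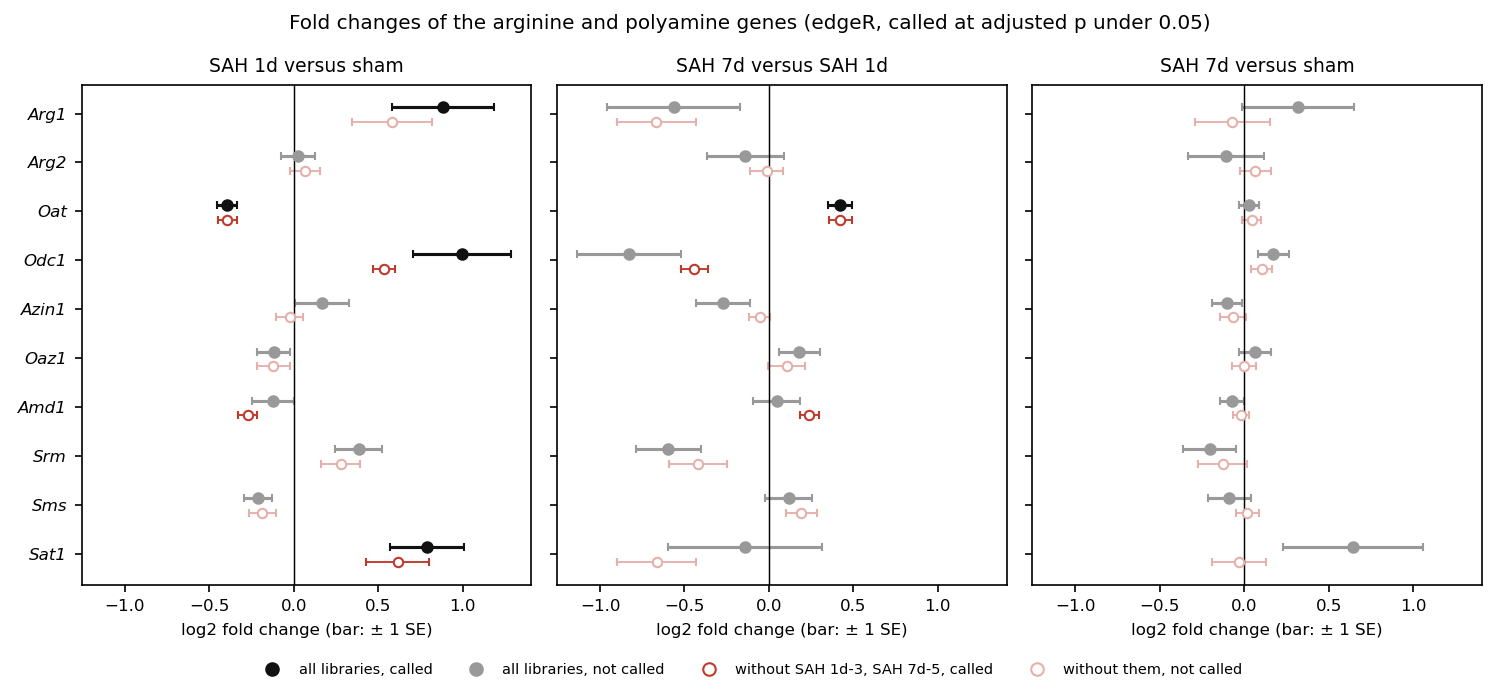
Log2 fold changes with SE of the 10 genes in the 3 comparisons, from all libraries (filled) and without SAH 1d-3 or SAH 7d-5 (open), with darker symbols for an edgeR adjusted p under 0.05. The values of Oat hardly move when the 2 libraries are left out, those of Odc1 and Sat1 at day 1 shrink to 0.53 and 0.62 but stay called, Arg1 at day 1 drops to 0.58 and loses its call, and Amd1 becomes called.

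To set the levels of different genes side by side, the FPKM values were used, which are scaled to transcript length. In the sham group Oaz1 is the most abundant of the 10, with 363 ± 22.6 FPKM (SD, n = 6), 5.24 times the next gene. Amd1 (69.2 ± 3.999 FPKM), Oat (66.0 ± 3.36 FPKM), Sat1 (62.6 ± 6.96 FPKM) and Azin1 (58.9 ± 7.25 FPKM) follow, and each of these overlaps its neighbour in range, so their order is not resolved. Sms has 37.4 ± 3.07 FPKM and overlaps neither neighbour. Odc1 (25.2 ± 2.03 FPKM) and Srm (19.0 ± 2.06 FPKM) overlap each other in range. The arginases are lowest, Arg2 with 5.52 ± 0.525 FPKM and Arg1 with 2.22 ± 0.732 FPKM, and their ranges do not overlap. By group means, Sat1 and Odc1 stand higher in the order at day 1. Sat1 is then at 117 ± 43.6 FPKM and Odc1 at 53.1 ± 35.4 FPKM, a mean that SAH 1d-3 with 125 FPKM carries in large part, while the median of Odc1 is 39.9 FPKM. The fitted folds above are on CPM and these are levels in FPKM.

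**Figure D3:**
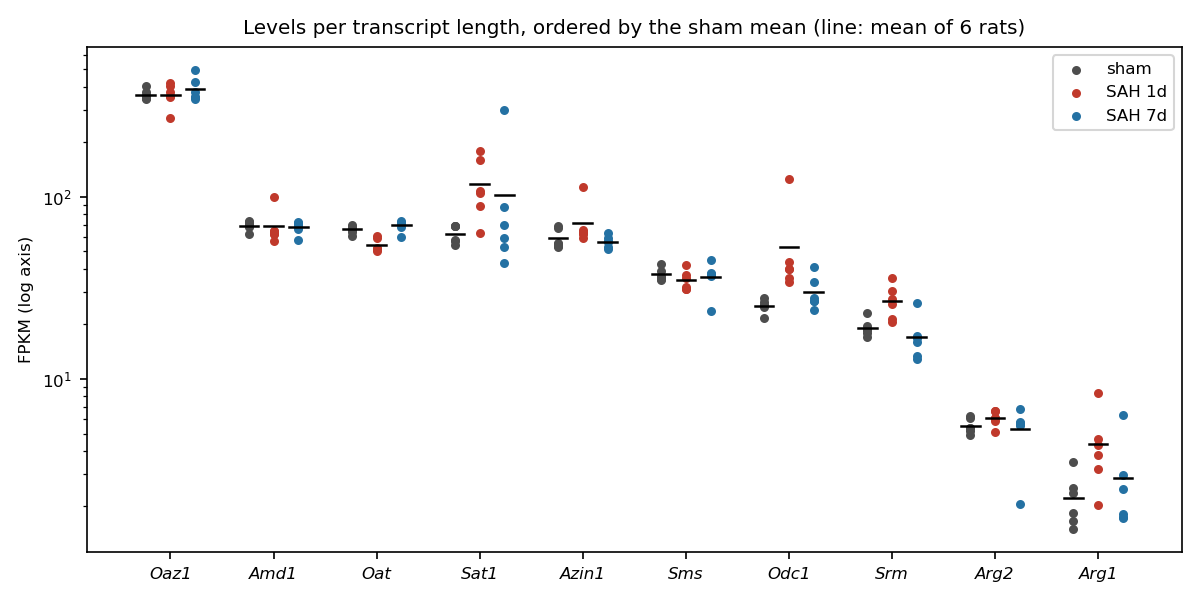
FPKM of the 10 genes on a log axis in each library, ordered by the sham mean, with a line at the mean of the 6 rats of each group. Oaz1 lies above all other genes in every group, the arginases lie lowest, and single high points belong to Odc1 in the SAH 1d group (125 FPKM) and Sat1 in the SAH 7d group (297 FPKM).

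Ratios of FPKM within a library describe the balance between genes without the scaling to library size, and they are given with no test. The ratio of Odc1 to Oaz1, decarboxylase to antizyme, has a median of 0.0709 in the sham group, with a range of 0.0582 to 0.0759. In the SAH 1d group the median is 0.108, and the lowest library (0.0948) lies above the highest sham library, while SAH 1d-3 reaches 0.352. In the SAH 7d group the range is 0.0690 to 0.0828 and overlaps the sham range. The deposited FPKM of Odc1 does not keep a fixed proportion to its count. SAH 7d-1 has 85.7 CPM and 34.1 FPKM of Odc1, whereas SAH 7d-2 has 82.3 CPM and 27.9 FPKM. The ratio carries that difference too, and its source was not tested. The ratio of Azin1 to Oaz1 has a median of 0.154 for sham, 0.174 for SAH 1d and 0.155 for SAH 7d, and the groups overlap.

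The ratio of Srm to Sms is 0.459 to 0.561 in the sham group, with a median of 0.512, and 0.485 to 1.14 in the SAH 1d group, with a median of 0.787. In the SAH 7d group its median is 0.440. The groups overlap, and 5 of the 6 SAH 1d values exceed the highest sham value. The ratio of Sat1 to Odc1, breakdown to synthesis, has medians of 2.50, 2.45 and 2.42 in the 3 groups, and the ranges of the groups overlap. The highest ratio is 7.24, in SAH 7d-5. The ratio of Arg1 to Arg2 has medians of 0.393, 0.651 and 0.377, and exceeds 1 only in SAH 1d-3 (1.64) and in SAH 7d-5 (3.08), where Arg1 transcripts outnumber those of Arg2.

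**Figure D4:**
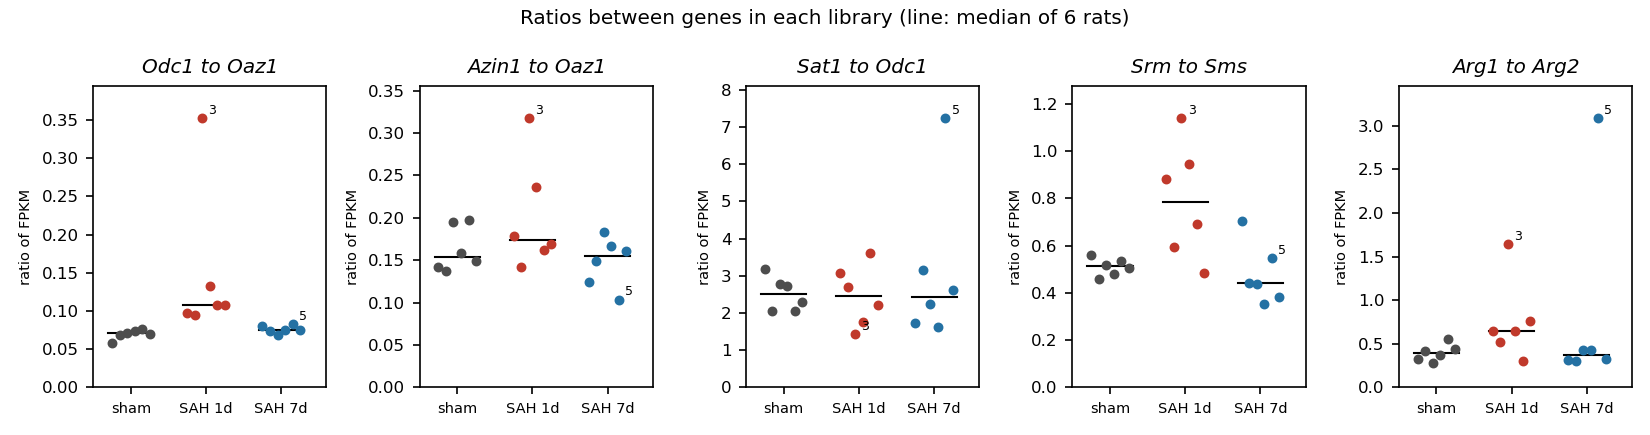
Ratios of FPKM between pairs of genes in each library, with a line at the median of the 6 rats of each group and the outlying libraries marked by their numbers, 3 for SAH 1d-3 and 5 for SAH 7d-5. The ratio of Odc1 to Oaz1 in the SAH 1d group (0.0948 to 0.352) lies wholly above the sham group (0.0582 to 0.0759), and the ratio of Sat1 to Odc1 overlaps across the groups.

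The wider pathway was covered by a list of 52 other genes of arginine supply and use, transport, polyamine oxidation, the methionine route, hypusine and ornithine-linked proline metabolism. Of these, 51 are in the table and 50 were tested. In SAH 1d versus sham 18 of the 50 changed (36%), 11 higher and 7 lower, 2 of them as DEGs, and their median log2 fold change is 0.05. The share stands beside 25.4% of all genes. The fit of all 18 libraries calls 12 of them, 5 higher and 7 lower. With limma on log2(FPKM + 1), 17 are called, 14 higher and 3 lower, so the split by direction depends on the fit. Over all genes that limma fit calls 3846 as higher and 1009 as lower, against 2748 and 1936 in edgeR. Its tilt to higher values is thus not particular to the pathway, and the FPKM values carry no TMM scaling. Nos3, P4ha1 and P4ha2, like Arg1, Odc1 and Oat, are also in the study's own set for arginine and proline metabolism, which was chosen on these samples, so their direction is not independent evidence. Between the SAH groups 1 of the 50 is called, against 1.37% of all genes. Between SAH 7d and sham edgeR calls 0 of the 50, as it calls 0% of all genes. At an unadjusted p under 0.05, 8 of the 50 pass there, against 15.4% of all genes. DESeq2 calls 1 of the 50, against 459 of all 18444 genes. These counts are near the shares of all genes.

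Of 13 genes of arginine supply and use, 3 were higher at day 1 and 2 were lower, against 14.9% and 10.5% of all genes. Both DEGs are nitric oxide synthases. Nos3, the endothelial form, has 7.43, 10.1 and 12.9 CPM as the lowest, median and highest of the sham group and 12.8, 17.8 and 50.7 CPM in the SAH 1d group, with 5 of 6 libraries above every sham library. It was upregulated with a log2 fold change of 1.19 (SE 0.30, edgeR adjusted p = 0.0124), and without SAH 1d-3 the value is 0.79 (SE 0.17, adjusted p = 0.00431). SAH 1d-3 also has the highest sum of endothelial markers, 264 CPM against 129 to 158 CPM in the other SAH 1d libraries, and their part in the Nos3 values was not tested. At SAH 7d its highest value is 14.4 CPM, and the log2 fold change is -1.17 against SAH 1d (SE 0.31, adjusted p = 0.0889) and 0.03 against sham (SE 0.18, adjusted p = 0.941).

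Nos2, the inducible form known from activated macrophages, is near the detection limit, with 0 to 0.412 CPM in the sham group. It has 0.455 to 1.26 CPM in 5 of the SAH 1d libraries and 27.7 CPM in SAH 1d-3. All 6 SAH 1d values exceed the highest sham value, but the log2 fold change of 4.34 (SE 1.22, edgeR adjusted p = 0.0208) rests on SAH 1d-3, without which it is 1.43 (SE 0.54, adjusted p = 0.0633). DESeq2 gives no adjusted p for it, and limma on FPKM does not call it. SAH 1d-3 is thus the highest SAH 1d library for Arg1 and for Nos2, a gene from each of the routes that compete for arginine. SAH 7d-5 is likewise the highest SAH 7d library for both, with 9.60 CPM of Arg1 and 0.927 CPM of Nos2, a count of 31. The other genes of these routes differ. Arg2 is lowest of its group in SAH 1d-3 (7.97 CPM) and in SAH 7d-5 (3.17 CPM). So is Nos1, the neuronal synthase (9.32 and 9.75 CPM). Nos3 is highest of its group in SAH 1d-3 but not in SAH 7d-5.

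The other called genes of the pathway were named after their values were seen. In arginine supply and use, Asl, the enzyme that releases arginine from argininosuccinate, was higher (log2 fold change 0.50, SE 0.12, edgeR adjusted p = 0.00876), a call lost in the fit of all 18 libraries (adjusted p = 0.0672). Gamt, of creatine synthesis, was lower (-0.53), as was Azin2, the second antizyme inhibitor (-0.58, SE 0.14, edgeR adjusted p = 0.00952), of which each SAH 1d library, at 9.09 to 15.8 CPM, lies below the sham range of 17.6 to 24.6 CPM. The Gamt call is lost when sham-1, sham-2, sham-6, SAH 1d-1, SAH 1d-4 or SAH 1d-6 is left out (adjusted p up to 0.0814).

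In transport 6 of 12 genes were called, 5 higher and 1 lower, which is 50%. Among all genes 25.4% are called, 14.9% as higher and 10.5% as lower, and these shares also stand beside the lists below. Of the cationic amino acid carriers and their partner, Slc7a1 (log2 fold change 0.35), Slc7a2 (0.79), Slc7a6 (0.32), Slc7a7 (0.89) and Slc3a2 (0.79) were higher, while Slc7a3 has 0.50 (SE 0.19, edgeR adjusted p = 0.0704). Slc3a2, the heavy chain shared by several carriers, has 130 to 175 CPM in the sham group and 207 to 343 CPM in the SAH 1d group (SE 0.13, edgeR adjusted p = 0.00115). Atp13a2, a lysosomal polyamine exporter, was lower (-0.30, SE 0.08, adjusted p = 0.0135), though limma on log2(FPKM + 1) does not call it (adjusted p = 0.130). In the fit of all 18 libraries the calls of Slc7a1 (adjusted p = 0.0602), Slc7a2 (0.0791), Slc7a6 (0.214) and Slc7a7 (0.396) are lost. Slc7a1, the main arginine carrier of many cells, is also the 1 pathway gene called between the SAH groups. It has 51.8 to 82.6 CPM in the SAH 1d group and 31.0 to 47.5 CPM in the SAH 7d group, so the groups do not overlap, as for 2.13% of all genes in this direction. The log2 fold change is -0.67 (SE 0.13, adjusted p = 0.0292), and the call is lost when SAH 1d-1, SAH 1d-5, SAH 7d-1, SAH 7d-2, SAH 7d-3 or SAH 7d-6 is left out (adjusted p up to 0.0828). Its call at day 1 is kept only without sham-1, SAH 1d-2, SAH 1d-3, SAH 1d-4 or SAH 1d-6 among the libraries left out in turn (adjusted p up to 0.0858).

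Among the genes nearest to the 10, the isozymes of antizyme, acetylation and oxidation, 1 of 5 changed at day 1. Oaz2, the second antizyme, has 59.4 to 63.9 CPM in the sham group and 37.99 to 53.8 CPM in the SAH 1d group and was lower with a log2 fold change of -0.35 (SE 0.08, edgeR adjusted p = 0.0104), though limma on FPKM does not call it. Smox, spermine oxidase, has a log2 fold change of 0.29 (SE 0.15, adjusted p = 0.165), which limma on FPKM calls. Paox, the oxidase of acetylated polyamines, has -0.19 (SE 0.14, adjusted p = 0.341), and Sat2, the relative of Sat1, has -0.25 (SE 0.13, adjusted p = 0.168).

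In the methionine route 2 of 8 genes changed. Mat2b, a subunit of the enzyme that makes S-adenosylmethionine, was lower (log2 fold change -0.53, SE 0.12, edgeR adjusted p = 0.00652), and Ahcy, which clears S-adenosylhomocysteine, was higher (0.26, SE 0.09, adjusted p = 0.0485), a call that leaving out 1 library loses in 10 of 12 cases, all but sham-5 and SAH 1d-4. Of 4 genes of hypusine, the modification of eIF5A that uses spermidine, Eif5a2 was lower (-0.51, SE 0.09, adjusted p = 0.00234), with 96.5 to 132 CPM against 145 to 189 CPM in the sham group. The more abundant Eif5a has 0.25 (SE 0.11, adjusted p = 0.106).

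Of 8 genes of ornithine-linked proline metabolism, 3 changed. P4ha1 (log2 fold change 0.69, SE 0.09, edgeR adjusted p = 0.000197) and P4ha2 (0.90, SE 0.08, adjusted p = 2.31e-05) were higher, and P4ha2 has 24.6 to 29.5 CPM in the SAH 1d group against 13.2 to 16.5 CPM in the sham group. Both encode subunits of the prolyl hydroxylase of collagen, and so modify proline in protein and do not make it from ornithine. Prodh1, proline dehydrogenase, was lower (-0.80, SE 0.28, adjusted p = 0.0498), a call that leaving out 1 library loses in 10 of 12 cases, all but SAH 1d-2 and SAH 1d-3.

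**Figure D5:**
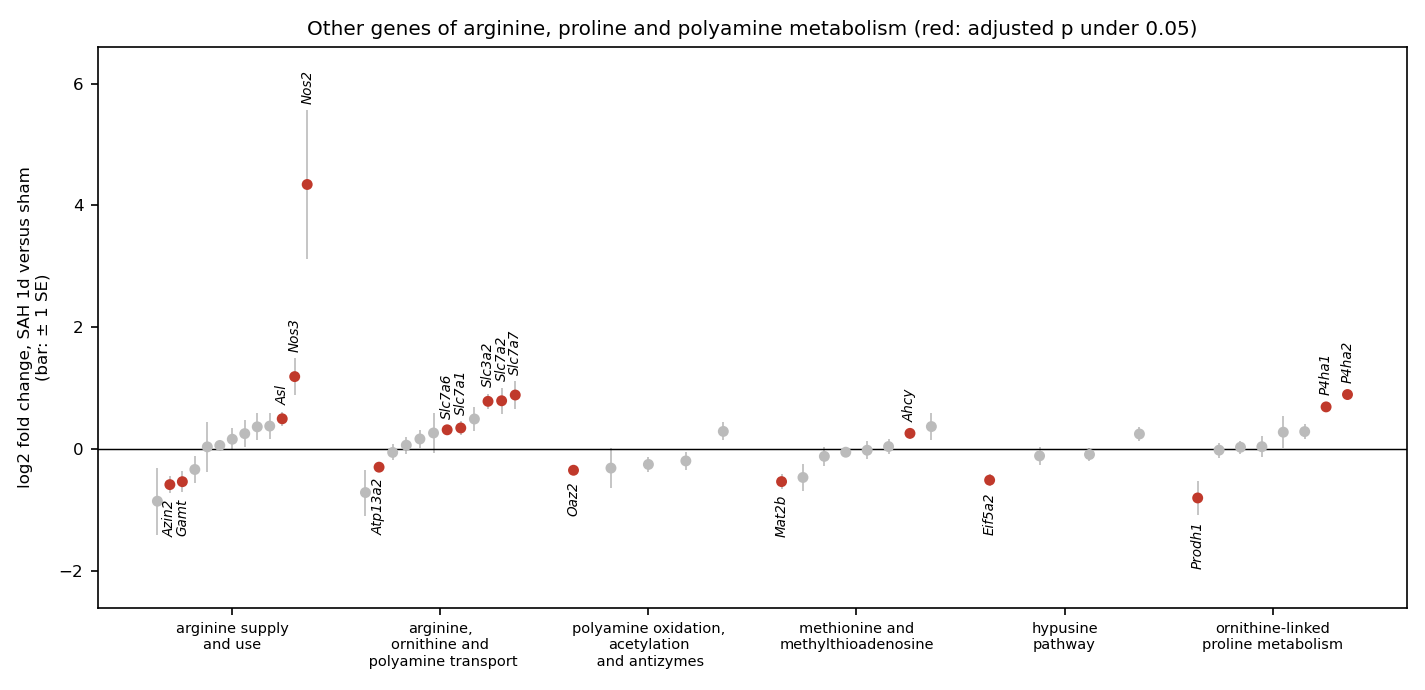
Log2 fold changes (SAH 1d versus sham, bars ± 1 SE) of the 50 tested pathway genes in 6 groups by role, with called genes in red and named. Nos2 (4.34) and Nos3 (1.19) are the 2 genes past 2-fold, and the transport genes hold 5 called above 0 and 1 below.

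The genes most like the called genes in pattern were found by Spearman correlation of log2 CPM over the 18 libraries, among 14047 genes with a symbol and a mean of at least 1 CPM. The libraries share groups and the correlations carry the same group differences and the same 2 libraries that stand apart, so they are a description. For Odc1 the highest is Eif3g, with a rho of 0.930 (0.938 without both outlying libraries). For Sat1 it is Abraxas1, with 0.963 (0.953), followed by Pcna with 0.924 (0.894). For Oat it is Rnpep, with 0.901 (0.885), followed by Sparcl1 with 0.899 (0.953) and Tp53bp2 with 0.893 (0.935). For Arg1 it is Rbmxl1b, with 0.899 (0.856), followed by Igf2r with 0.882 (0.835) and Utp15 with 0.878 (0.829).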

How the data were processed

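The genes and lists were chosen with earlier results of these data known. The counts as deposited are whole and unnormalized, and the authors made them from reads cleaned and aligned to Rnor_6.0 in the paper, while the submitters' processing notes name fastp, HISAT2, DESeq2 1.16.1 and mm9. The counting program is not given in the sources used here. The deposited FPKM values were scaled by the authors to transcript length and mapped reads. Replicates were not pooled.

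Counts were tested with edgeR 4.0.16 in R 4.3.3 (filterByExpr over 18 libraries, TMM, quasi-likelihood F test, 12 libraries per comparison, two-sided, Benjamini-Hochberg over 18444 genes, of which 3100 are unnamed loci). SE is the size of the log2 fold change divided by the square root of F. CPM is TMM-normalized over 18 libraries. FPKM was used as deposited, with no TMM scaling, for levels and ratios and in limma. As alternatives, DESeq2 1.42.0 (size factors, Wald test), limma 3.58.1 with trend on log2(FPKM + 1) and log2(FPKM + 0.1), no filter, all libraries in 1 fit, a replicate block and left-out libraries were run. Tables and plots used Python 3.11.15, pandas 2.3.3 and matplotlib 3.10.9. The edgeR, DESeq2 and limma tests of each comparison were tested on simulated data. Of simulated 2-fold changes, edgeR called 70% for SAH 1d versus sham and 46% for SAH 7d versus SAH 1d. For SAH 7d versus sham it called 51%, so changes of that size can be missed. False calls were 10, 6 and 7 in these comparisons with edgeR, 35, 44 and 45 with DESeq2 and 8, 6 and 6 with limma. By rule the named pathway genes are those called at 2-fold or more and the isozymes Oaz2, Sat2, Smox, Paox and Azin2, and for each called gene of the 10 the 3 most alike, and other pathway genes were named after their values were seen. Marker lists cover 13 cell types or states with 69 genes. Libraries were assigned by the descriptions in the labels, and 0 of 153 pairs hold identical values. How read pairs were counted is not known, so errors are the spread between rats.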

Additional observations from a re-analysis of the deposited data

Results flagged for a closer look

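Within each group of 6 libraries, Dixon's test was applied to the normalized counts of 17 genes, which makes 51 sets of values, and a single library stood apart in 12 of them. The threshold would flag about 1 in 20 independent sets of normally distributed values. These sets share the same libraries and are not independent, so the count is a description and no measure of chance. Nos2 and Nos3 are among the 17 genes through their calls at 2-fold or more, which both lose without SAH 1d-3. SAH 1d-3 accounts for 5 of the 12. It has 347 CPM of Odc1 (others 94.5 to 120), 483 CPM of Azin1 (others 240 to 277), 324 CPM of Amd1 (others 183 to 207), 27.7 CPM of Nos2 (others 0.455 to 1.26) and 50.7 CPM of Nos3 (others 12.8 to 23.1). SAH 7d-5 accounts for 6. It is high for Arg1 (9.60 CPM, others 2.72 to 4.71), Sat1 (348 CPM, others 53.1 to 107), Nos2 (0.927 CPM, others 0.105 to 0.302) and Paox (35.6 CPM, others 17.6 to 21.8), and low for Arg2 (3.17 CPM, others 8.92 to 11.04) and Amd1 (184 CPM, others 223 to 238). The remaining one is Srm in SAH 7d-1, with 32.4 CPM against 15.6 to 21.9 CPM.

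The change from sham differed between day 1 and day 7 for 2 genes, by the direct edgeR test of SAH 7d versus SAH 1d, since both changes are taken against the same sham libraries. The difference is 0.42 on the log2 scale for Oat (adjusted p = 0.0160), which was higher in 6 of 6 SAH 7d libraries than in any SAH 1d library, and -0.67 for Slc7a1 (adjusted p = 0.0292), lower in 6 of 6.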

How the results depend on the processing

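In SAH 1d versus sham, 1 fit of all 18 libraries calls 2462 genes and 2 of the 10 (Odc1 and Oat), and leaving out each library gives 3 to 5. In SAH 7d versus SAH 1d, the count of 252 genes becomes 1012 with DESeq2, 779 with all libraries in 1 fit, 411 and 429 with limma on FPKM, 2512 without the outlying libraries, and 102 to 1545 with each library left out, the latter without SAH 7d-5. Of the 10 genes, 3 are called there without the outlying libraries (Odc1, Amd1 and Oat) and 0 to 1 with each library left out. Of the other pathway genes, 4 are called with DESeq2, 4 with all libraries in 1 fit, 11 without the outlying libraries and 0 to 6 with each left out. In SAH 7d versus sham, DESeq2 calls 459 genes and 1 pathway gene, all libraries in 1 fit give 9 genes, and leaving out each library gives 0 to 3.

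No shared deviation by replicate number was seen. The 18 correlations of same-numbered deviations run from -0.253 to 0.197, 1 is over 0.1, and 2 libraries correlate best with their own number. These correlations cannot show whether the rats were matched or processed together. With the number as a replicate block, 29 genes, 0 of the 10 and 0 pathway genes are called for SAH 7d versus SAH 1d.

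No called value changed sign. Among values that were not called, Azin1 at day 1 becomes -0.0245 without SAH 1d-3, and against sham at day 7 Arg1 becomes -0.0699, Arg2 0.0670, Oaz1 -0.0029, Sms 0.0193 and Sat1 -0.0332 without SAH 7d-5. With single libraries left out, Arg2 at day 1 runs from -0.0101 to 0.0661. Between the SAH groups Arg2 runs from -0.23 to 0.0272 and Sat1 from -0.84 to 0.0336. At day 7 against sham, Arg1 runs from -0.0699 to 0.48, Arg2 from -0.20 to 0.0670, Oaz1 from -0.0029 to 0.10, Sms from -0.16 to 0.0193 and Sat1 from -0.0332 to 0.79, and Azin1 at day 1 from -0.0245 to 0.22. Over all single genes, 924 recomputed values kept their direction and their side of the threshold, 84 lost the call, 13 gained it and 18 changed sign. The causes were not tested.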
